A study of Mus musculus with 16 samples.

Results

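Fatty acid oxidation in these livers was followed through 8 genes chosen by name: Cpt1a, Cpt2, Slc25a20, Acadl, Acadm and Hadha of the mitochondrial pathway, and Ehhadh and Acaa1b of the peroxisomal pathway. All 8 were among the 15119 genes of the counts table, and all 8 passed the filter on low counts. None of them is an enzyme of ketone body synthesis, so genes of ketogenesis were described from a separate list. Poly(A) RNA was sequenced from livers of female mice that lacked Arglu1 in hepatocytes (LKO) or were wild type (WT). The 4 groups, of 4 libraries each, were LKO on a high-fat diet (HFD, TD. 88137), WT on HFD, LKO on chow and WT on chow. All mice were aged to 9 months on chow, and the diet period then lasted 12 weeks. The labels give neither the strain nor the Cre driver, and nothing in them ties a library to its own mouse. Errors and p-values therefore measure how these libraries vary, which may be technical.

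Long-chain fatty acids are activated to acyl-CoA and enter mitochondria through the carnitine shuttle. Inside, beta-oxidation shortens the chain in repeated cycles of dehydrogenation, hydration, dehydrogenation and thiolysis, and the liver turns much of the acetyl-CoA into ketone bodies during fasting. Peroxisomes run a parallel pathway that handles very long chains and dicarboxylic acids. The nuclear receptor PPARA, which is activated by fatty acids, is a main transcriptional regulator of both pathways in mouse liver.

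Total estimated counts ran from 19158827 to 24667513 in LKO on HFD, from 20219283 to 24123730 in WT on HFD, from 19142612 to 25120565 in LKO on chow and from 19689661 to 23774780 in WT on chow. Arglu1 stood at 13.4 to 16.7 CPM in LKO on HFD, against 40.25 to 43.9 CPM in WT on HFD. On chow it stood at 12.8 to 15.99 CPM in LKO, against 39.5 to 45.1 CPM in WT. CPM here is the count relative to the TMM-scaled library size. Defining hepatocyte genes (7 of 8 listed were in the table) summed to 65710 CPM or more in every library. On the second principal component of all genes, LKO chow libraries 3 and 4 (38.1 and 34.7) stood apart from LKO chow libraries 1 and 2 (-10.7 and -11.1). Results of the 8 genes that involve LKO on chow are therefore also given without each of these pairs where that changed a call. For the related lists mainly the counts of called genes are given without these pairs. The liver was measured in bulk, so fewer cells of a type and less RNA per cell cannot be told apart.

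Acaa1b encodes a thiolase that closes the peroxisomal cycle. Acaa1a on the same chromosome encodes a near-identical thiolase, and their coding sequences were 96.5% identical (44 mismatches over 1275 aligned bases, GENCODE M21 transcripts). Of all windows of 150 bases, the read length, in the Acaa1b transcript, 13.3% occurred exactly in an Acaa1a transcript. At 50 bases the share was 35.5%. No 150-base window of the other 7 genes occurred in a transcript of another gene. How reads that fit both thiolase genes were counted is not given in the sources used here, so the split between them is uncertain. Coding positions 460 to 549, counted from the A of the start codon, are the stretch of 90 bases where they differ most, at 13 positions, and these are shown because only such positions tell reads of the pair apart (differing bases in capitals).
Acaa1b: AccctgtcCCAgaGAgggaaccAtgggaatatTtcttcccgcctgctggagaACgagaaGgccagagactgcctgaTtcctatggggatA
Acaa1a: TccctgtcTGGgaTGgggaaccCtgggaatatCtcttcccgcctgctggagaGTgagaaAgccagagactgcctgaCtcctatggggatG

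The 250 bases upstream of the annotated start are shown for Ehhadh and Acaa1b, the pair that rose on HFD in WT, and for Cpt1a, whose level varied most between chow libraries among the mitochondrial genes (RefSeq, GRCm38.p6). They were searched on both strands for the PPARA response element (the hexamer AGGTCA repeated in the same direction after 1 base of any kind), for the hexamer alone, and for CACGTG, the E-box bound by clock factors. Capitals mark the hexamer, which lies inside the longer motif by construction.
Ehhadh, chr16:21787835-21788084, minus strand: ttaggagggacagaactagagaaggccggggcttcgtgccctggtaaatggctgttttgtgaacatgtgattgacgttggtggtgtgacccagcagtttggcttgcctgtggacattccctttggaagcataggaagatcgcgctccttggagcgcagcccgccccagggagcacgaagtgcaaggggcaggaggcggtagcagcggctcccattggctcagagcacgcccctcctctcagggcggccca
Acaa1b, chr9:119157094-119157343, minus strand: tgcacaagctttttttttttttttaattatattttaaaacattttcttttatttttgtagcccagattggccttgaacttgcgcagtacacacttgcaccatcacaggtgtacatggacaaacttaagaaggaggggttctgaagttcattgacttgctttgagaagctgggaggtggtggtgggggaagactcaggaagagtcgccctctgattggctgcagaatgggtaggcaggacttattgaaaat
Cpt1a, chr19:3323051-3323300, plus strand: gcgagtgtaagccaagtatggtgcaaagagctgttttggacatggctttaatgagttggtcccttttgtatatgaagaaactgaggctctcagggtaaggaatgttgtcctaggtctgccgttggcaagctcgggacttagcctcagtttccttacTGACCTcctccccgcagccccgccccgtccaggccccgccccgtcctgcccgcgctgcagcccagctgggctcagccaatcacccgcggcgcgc
The repeat was in none of the 8 promoter windows and in 0.0335% of all 32851 promoter windows of this length. The single hexamer was in 2 of the 8, those of Cpt1a and Acadm, and in 14% of all. The E-box was in none of the 8 and in 6.02% of all. A match or its absence describes these letters in this window only.

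Per kilobase of merged exons, Acaa1b was the most abundant of the 8 transcripts in every group and did not overlap with the next, at 1314 ± 148 CPM per kb in LKO on HFD, 1633 ± 104 in WT on HFD, 937 ± 156 in LKO on chow and 783 ± 171 in WT on chow (SD, n = 4 each). Ehhadh and Acadm came next, at 233 ± 22.6 and 175 ± 3.58 CPM per kb in LKO on HFD, and their library ranges overlapped on chow in both genotypes. Acadl was the fourth by its mean in all 4 groups. Its library range overlapped with that of the third gene in WT on either diet, and with that of the fifth in LKO on either diet. Hadha, Cpt1a, Cpt2 and Slc25a20 followed, and in WT on either diet and in LKO on chow each neighbouring pair of these overlapped in its library ranges. At the low end Slc25a20 stood at 45.6 ± 3.91 CPM per kb in LKO on HFD and 57.7 ± 8.02 in WT on HFD (SD, n = 4 each). The rate-limiting Cpt1a, the outer membrane transferase that commits fatty acids to mitochondrial entry, was thus the fifth or the sixth by this measure.

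**Figure D1:**
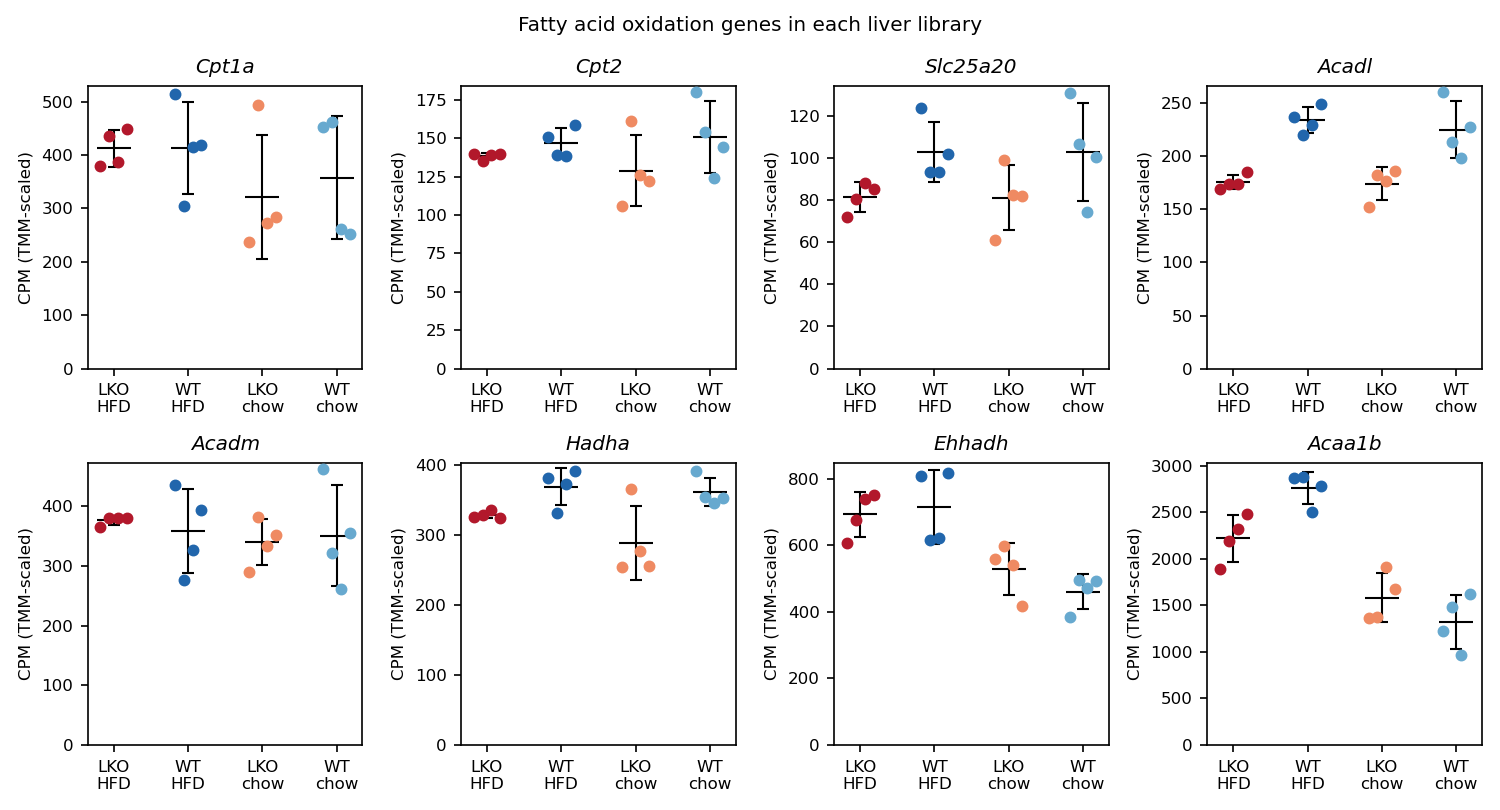
Level of each of the 8 genes in CPM (vertical axes, from 0) in every library (points), with the mean and SD of 4 libraries (bar), for LKO HFD, WT HFD, LKO chow and WT chow from left to right. Acadl is lower in LKO than in WT on either diet with no overlap, and Acaa1b in WT is higher on HFD (2504 to 2882 CPM) than on chow (963 to 1617 CPM).

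The comparison of LKO with WT asked whether loss of Arglu1 in hepatocytes altered the oxidation genes. Acadl, the long-chain acyl-CoA dehydrogenase of the mitochondrial matrix (ENSMUSG00000026003.5, chromosome 1, 66830839 to 66863277, GRCm38), fell by 0.41 on the log2 scale on HFD and by 0.37 on chow. Hadha, the alpha subunit of the trifunctional protein, fell on chow. The other 6 genes passed the test on neither diet. On HFD 1 of 8 was called, and it fell, where the test called 17.9% of 14434 genes (10.3% higher, 7.57% lower). On chow 2 of 8 were called, and both fell, where 24.7% of all genes were called (12.9% higher and 11.8% lower). Called means an adjusted p below 0.05 (edgeR quasi-likelihood test, Benjamini-Hochberg over all genes). Both shares are near the background. Their median log2 fold change was -0.13 on HFD (-0.01 over all genes) and -0.19 on chow (0.02 over all genes).

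Acadl had 169, 174, 174 and 185 CPM in the LKO HFD libraries, against 237, 221, 230 and 249 CPM in WT on HFD. The log2 fold change was -0.41 (SE 0.092, adjusted p = 0.00411). On chow it had 152, 182, 177 and 186 CPM in LKO, against 261, 213, 198 and 228 CPM in WT, and the log2 difference was -0.37 (SE 0.092, adjusted p = 0.00728). Every LKO library lay below every WT library on the same diet. On chow Acadl was the 1 member of 8 without overlap, as were 21.4% of all genes. On HFD the gap between the highest LKO and the lowest WT library was wider than the range within either group. The chow call was lost when the chow libraries were fitted alone (adjusted p = 0.0628).

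Hadha, which carries the hydratase and dehydrogenase activities of the trifunctional protein, had 254, 365.5, 276 and 256 CPM in LKO on chow, against 390, 354, 346 and 352 CPM in WT on chow. LKO chow library 2 lay within the WT range, and the other 3 LKO libraries lay below it. The log2 fold change was -0.32 (SE 0.106, adjusted p = 0.0319). The call was lost without WT chow replicate 1 or without LKO chow replicate 1, 3 or 4 (adjusted p = 0.0848, 0.0852, 0.0824 and 0.1), and without LKO chow libraries 3 and 4 together the log2 fold change was -0.22 (adjusted p = 0.256). On HFD Hadha had 326, 328.5, 335 and 324 CPM in LKO and 381, 330.5, 372 and 390 CPM in WT. There the log2 fold change of -0.17 did not pass (SE 0.105, adjusted p = 0.308), and 1 WT library lay within the LKO range.

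The carnitine shuttle genes did not pass the genotype test. Slc25a20, the carnitine-acylcarnitine carrier of the inner membrane, had 72.1, 80.2, 88.0 and 85.2 CPM in LKO on HFD, against 124, 93.4, 93.1 and 102 CPM in WT on HFD. The groups did not overlap, as for 27.8% of all genes in this comparison, and the log2 fold change was -0.34 (SE 0.158, adjusted p = 0.155). On chow its log2 fold change was also -0.34 (SE 0.158, adjusted p = 0.125), with overlapping libraries at 61.1 to 99.0 CPM in LKO and 74.1 to 131 CPM in WT. Without LKO chow replicate 2 the chow value was -0.46 (adjusted p = 0.0473), and without WT chow replicate 3 it was -0.47 (adjusted p = 0.03).

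Cpt2, the inner membrane transferase that completes the shuttle, averaged 138 ± 1.99 CPM in LKO on HFD and 147 ± 9.71 CPM in WT on HFD (SD, n = 4 each). On chow it averaged 129 ± 23.1 CPM in LKO and 151 ± 23.3 CPM in WT (SD, n = 4 each), and its LKO to WT difference there was -0.23 on the log2 scale (SE 0.119, adjusted p = 0.188). This reached -0.35 (adjusted p = 0.0233) without LKO chow replicate 2, which at 161 CPM was the highest of its group. Cpt1a averaged 413 ± 34.8 CPM in LKO on HFD and 413 ± 85.6 CPM in WT on HFD (SD, n = 4 each), and its adjusted p was 0.998. With Cpt1a on chow at 236, 494, 273 and 284 CPM in LKO and 453, 462, 262 and 253 CPM in WT, the chow comparison (log2 fold change -0.15, SE 0.239, adjusted p = 0.703) had the widest standard error of the 8. In LKO on chow library 2 alone was high, and in WT on chow libraries 1 and 2 were high and 3 and 4 low. Without LKO chow replicate 2 the chow value of Cpt1a was -0.44 (adjusted p = 0.143).

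Acadm, the medium-chain acyl-CoA dehydrogenase, did not follow Acadl. It averaged 376 ± 7.71 CPM in LKO on HFD and 358 ± 70.1 CPM in WT on HFD, and 339 ± 38.4 CPM in LKO and 350 ± 84.3 CPM in WT on chow (SD, n = 4 each). Its log2 fold changes were 0.07 on HFD (SE 0.154, adjusted p = 0.804) and -0.05 on chow (SE 0.154, adjusted p = 0.867). Without WT chow replicate 1 the chow value was 0.12 (adjusted p = 0.621). Among the peroxisomal members, Ehhadh, the bifunctional hydratase and dehydrogenase, had genotype log2 fold changes of -0.04 on HFD (SE 0.131, adjusted p = 0.862) and 0.20 on chow (SE 0.131, adjusted p = 0.3). Acaa1b differed by -0.31 on HFD (SE 0.149, adjusted p = 0.162) and by 0.26 on chow (SE 0.149, adjusted p = 0.23). On HFD every LKO library of Acaa1b (1890 to 2478 CPM) lay below every WT library (2504 to 2882 CPM), and Acaa1b passed the test when the HFD libraries were fitted alone (adjusted p = 0.0343). Limma voom called 4 of the 8 on HFD, namely Acadl, Slc25a20, Hadha and Acaa1b. Over the 75 tested genes of the related lists described below it called 24, where edgeR called 11. The share of all genes that limma voom called is not given here.

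Some hepatocyte and clock genes also differed between genotypes. On HFD 1 of 7 rose (Alb) and 1 fell (Ttr), and on chow 3 fell (Fgb, Hnf4a and Cps1), where 17.9% of all genes were called on HFD and 11.8% fell on chow. Of 11 clock genes none was called on HFD (edgeR, where 2 had an unadjusted p below 0.05). On chow 1 fell, Ciart, at a log2 fold change of -1.455 (adjusted p = 0.0475) and with no overlap, as for 21.4% of all genes. Ciart was at a very low level there, with 0.22 to 1.16 CPM in LKO and 1.17 to 2.80 CPM in WT. The median over the clock genes on chow was -0.48, against 0.02 over all genes. The hepatocyte genes summed to 85500 to 100600 CPM in LKO and 65710 to 71510 CPM in WT on HFD. On chow these hepatocyte sums were 111400 to 126800 CPM in LKO and 92240 to 119100 CPM in WT. Most of each sum was Alb, with a mean of 74380 CPM in LKO and 49710 CPM in WT on HFD. On chow the Alb mean was 98160 CPM in LKO and 82880 CPM in WT. The median log2 fold change of the 7 hepatocyte genes was 0.03 on HFD and -0.26 on chow, so the sums do not describe the set. The part of these hepatocyte and clock differences in the genotype results was not tested.

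**Figure D2:**
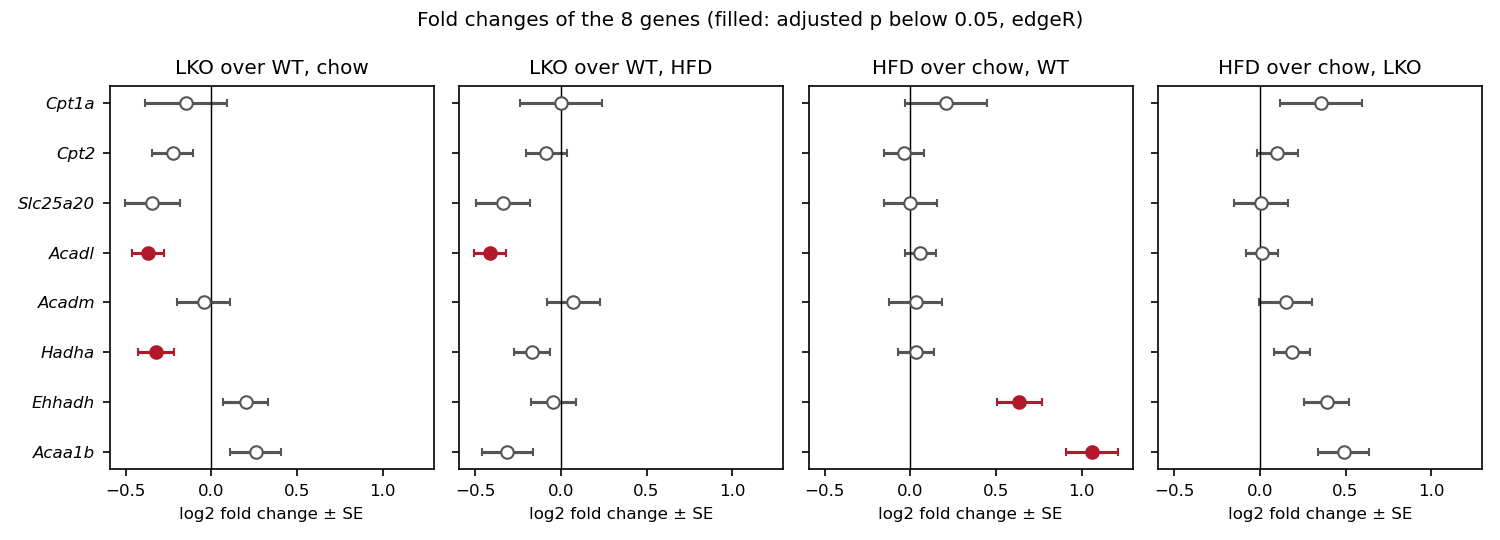
Log2 fold change (horizontal axis, with SE) of the 8 genes in LKO over WT on chow and on HFD and in HFD over chow in WT and in LKO. Filled red points passed an adjusted p below 0.05: Acadl and Hadha on chow and Acadl on HFD between genotypes, and Ehhadh and Acaa1b between diets in WT.

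The comparison of HFD with chow asked how the diet changed oxidation genes in each genotype. In WT the peroxisomal pair rose and no mitochondrial member passed. Acaa1b (ENSMUSG00000010651.4, chromosome 9, 119148023 to 119157093, GRCm38) had 2867, 2882, 2504 and 2782 CPM on HFD, against 1229, 1483, 963 and 1617 CPM on chow. It rose by 1.06 on the log2 scale, or 2.09-fold (SE 0.15, adjusted p = 0.000816), and the lowest HFD library stood well above the highest chow library. Acaa1a, with which it shares part of its sequence, had 249.5 ± 8.79 CPM on HFD and 199 ± 45.2 CPM on chow in WT (SD, n = 4 each). Its diet difference was 0.33 on the log2 scale (adjusted p = 0.304). Per kilobase, the ratio of Acaa1b to Acaa1a was 12.6 to 14.8 in WT on HFD, against 5.79 to 10.5 in WT on chow. In LKO it was 12.0 to 14.8 on HFD, against 9.59 to 13 on chow.

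Ehhadh (chromosome 16, 21761287 to 21787807, GRCm38) had 808, 617, 622 and 816 CPM in WT on HFD, against 385.5, 495, 472 and 492 CPM in WT on chow. The diets did not overlap. It rose by 0.63 (SE 0.131, adjusted p = 0.0161), a call that was lost without WT chow replicate 1 (adjusted p = 0.0544), WT HFD replicate 1 (adjusted p = 0.0557) or WT HFD replicate 4 (adjusted p = 0.059). The count in WT was thus 2 of 8, where 2.04% of 14434 genes were called (0.97% higher and 1.07% lower), and 1 of 8 without any one of those 3 libraries. The groups did not overlap for 2 of 8 members and for 9.51% of all genes.

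In LKO no member was called on HFD against chow (edgeR), where 2.22% of all genes were (1.14% higher and 1.07% lower). Unadjusted p-values were below 0.05 for 2 of 8, Ehhadh and Acaa1b, and DESeq2 called 1 (Acaa1b) and limma voom 2 (Ehhadh and Hadha). The shares of all genes for these counts are not given here. Ehhadh had 607, 675, 741 and 753 CPM in LKO on HFD, against 559, 599, 540 and 419 CPM in LKO on chow, again without overlap (as for 10.2% of all genes; log2 fold change 0.39, SE 0.131, adjusted p = 0.128). Acaa1b had 1890, 2185, 2324 and 2478 CPM in LKO on HFD, against 1368, 1376, 1915 and 1671 CPM in LKO on chow (log2 fold change 0.49, SE 0.149, adjusted p = 0.0957), and the lowest HFD library lay just below the highest chow library. Without LKO chow replicate 2 the count in LKO was 1, Hadha (log2 fold change 0.33, adjusted p = 0.038). It was 2, Ehhadh (0.54, adjusted p = 0.0258) and Hadha (0.31, adjusted p = 0.0306), without LKO chow libraries 1 and 2.

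The diet and genotype comparisons share libraries (each group enters more than one of them), so they are not independent of each other. The diet response itself was compared between genotypes by the interaction term. For Acaa1b it was -0.57 (SE 0.21, unadjusted p = 0.0144, adjusted p = 0.48), the lowest p of the 8, a smaller fitted rise in LKO that did not pass. No member was called (edgeR, and also by DESeq2 and limma voom), 1 of 8 had an unadjusted p below 0.05, and 0.0208% of all genes were called (0.00693% with a positive and 0.0139% with a negative term). Without LKO chow libraries 1 and 2 the interaction of Acaa1b was -0.75 (adjusted p = 0.0398). The call in WT and its absence in LKO are therefore not a shown difference between genotypes.

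Genes that track time of day and tissue make-up also differed between diets. Arntl, a core clock activator, fell on HFD in LKO (3.68 to 8.56 CPM, against 10.9 to 31.7 CPM on chow; adjusted p = 0.0138) and in WT (4.38 to 6.74 CPM, against 8.60 to 25.8 CPM on chow; adjusted p = 0.0458). Of 11 clock genes, 4 were called between diets in LKO (1 rose and 3 fell) and 1 in WT, where 2.22% and 2.04% of all genes were called in LKO and in WT. The clock output gene Dbp was at 6.70 and 1.43 CPM in LKO chow libraries 1 and 2 and at 49.0 and 66.9 CPM in LKO chow libraries 3 and 4. The labels give no collection time. Of 7 hepatocyte genes 3 fell on HFD in WT, with Alb at a log2 fold change of -0.74 (adjusted p = 0.00179), and 3 of 7 stellate cell genes rose, all collagens, where 1.07% of all genes fell and 0.97% rose. Summed stellate cell genes stood at 323 to 498.5 CPM in WT on HFD, against 213 to 363 CPM in WT on chow. No gene of the macrophage (9), endothelial (7), bile duct (5) or lymphocyte (6) lists was called between diets or genotypes. Adipocyte genes, read from the second deposited table only, summed to at most 11.0 CPM in any library, with 2.56 to 11.0 CPM in LKO and 0.365 to 6.20 CPM in WT on HFD, and 0.196 to 7.42 CPM in LKO and 0.0971 to 3.72 CPM in WT on chow. Of these genes Cfd had 59 to 204 counts in LKO and 4 to 44 counts in WT on HFD, while Lep was at 0 in all LKO HFD libraries and at 0 to 5 counts in WT on HFD. Macrophage genes summed to 423 to 659 CPM in WT on HFD, against 284 to 686 CPM in WT on chow. The part of clock state or cell make-up in the diet result was not tested.

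**Figure D3:**
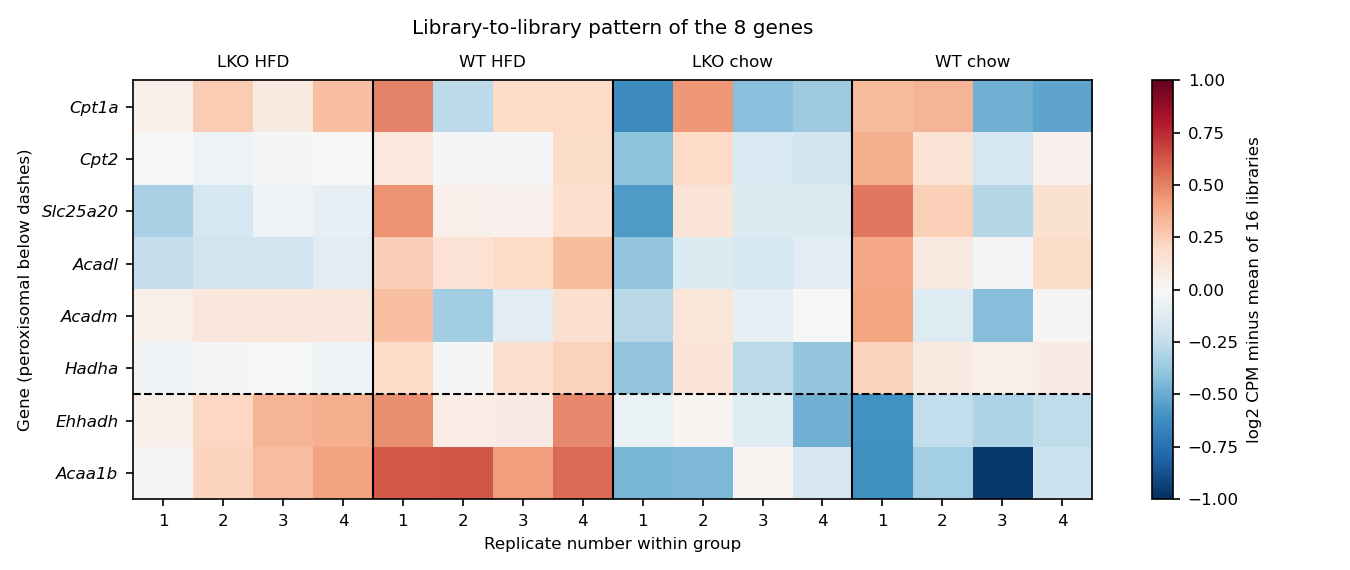
Log2 CPM of the 8 genes (rows) in each of 16 libraries (columns, replicate numbers within LKO HFD, WT HFD, LKO chow and WT chow), as the difference from the mean of the 16. The 6 mitochondrial genes above the dashes go up and down together from library to library, as in LKO chow libraries 1 (all 6 low) and 2 (5 of 6 high), while below the dashes Ehhadh and Acaa1b are higher on HFD than on chow in WT with no overlap, and in LKO the Acaa1b diet groups overlap.

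The mitochondrial genes varied together across libraries. Over all 16 libraries, Pearson correlations of log2 CPM among the 15 mitochondrial pairs ran from 0.32 to 0.87 with a median of 0.68, and around the group means they ran from 0.49 to 0.88 with a median of 0.78. Pairs of a mitochondrial and a peroxisomal gene had a median of 0.19 over the 16 libraries and 0.13 around the group means (12 pairs). Ehhadh and Acaa1b had r = 0.78 over the 16 libraries and 0.16 around the group means. All points share library preparation and scaling, so these values describe the libraries only. In WT HFD libraries 1 and 4 and in WT chow library 1 all 6 mitochondrial genes were above their mean over 16 libraries, and in LKO chow libraries 1, 3 and 4 none of the 6 were. Cpt1a had r = 0.71 with Ppara over the 16 libraries, and Acadl had r = 0.13.

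Of the 8 genes, 7 had their smallest spread in LKO on HFD. The median SD of log2 CPM of the members was 0.088 in LKO on HFD, 0.149 in WT on HFD, 0.241 in LKO on chow and 0.277 in WT on chow. Over all genes the medians were 0.144, 0.179, 0.254 and 0.215 in the same order of groups, and LKO on HFD had the smallest spread for 44.6% of genes. The exception among the members was Acaa1b, whose SD was smallest in WT on HFD.

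The 5 genes outside all lists whose log2 CPM followed the mean standardised level of the 8 most closely over 16 libraries were Gpd1 (r = 0.86), Gpat3 (0.84), Atg4b (0.84), Rtn4ip1 (0.84) and Gm9797 (0.83), of 12621 genes considered.

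The rest of the pathway was read from 5 lists with 77 genes, of which 75 were tested. Cidea and Hmgcll1 were read only from the second table, where they had at most 37 and 11 counts in any library. In LKO against WT on HFD 5 of the 75 rose and 6 fell, and on chow 10 rose and 9 fell. As shares these are near the 17.9% and 24.7% of all genes. The HFD count of 11 was 7 without WT HFD replicate 2 or 3 or LKO HFD replicate 2 or 3, and 5 without WT HFD replicate 4 or LKO HFD replicate 1. The chow count of 19 was 11 without LKO chow libraries 3 and 4. Decr1 and Acat1, described below, kept their calls on both diets in all 26 alternatives. Which calls of the other genes named below were lost is not given here. The shares of all genes called under these alternatives are not given here either.

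In the mitochondrial list (19 genes, among them the peroxisomal hydrolase Nudt7) 1 rose and 3 fell on HFD, and 1 rose and 3 fell on chow. Of all genes 10.3% rose and 7.57% fell on HFD, and 12.9% rose and 11.8% fell on chow. The list is a grouping by name that may hold further peroxisomal genes, and where each protein acts was not tested. Decr1, the dienoyl-CoA reductase that lets unsaturated chains continue through the cycle, fell by 0.79 on HFD (SE 0.129, adjusted p = 0.000329) and by 0.82 on chow (SE 0.129, adjusted p = 0.000181). It averaged 101 ± 9.43 CPM in LKO and 174 ± 14.5 CPM in WT on HFD, and 88.0 ± 15.8 CPM in LKO and 155 ± 22.9 CPM in WT on chow (SD, n = 4 each). Etfdh, which passes electrons from the acyl-CoA dehydrogenases to ubiquinone, fell by 0.47 on HFD (adjusted p = 0.0239) and by 0.51 on chow (adjusted p = 0.0119). Etfa, a subunit of the electron carrier before it, fell by 0.27 on HFD (adjusted p = 0.0325), and Acad11, an acyl-CoA dehydrogenase, fell by 0.53 on chow (adjusted p = 0.0144). Acad10 rose by 0.35 on HFD (adjusted p = 0.0168) and Eci2, an enoyl-CoA isomerase, by 0.43 on chow (adjusted p = 0.0491). Hadhb, the partner subunit of Hadha, stood at 0.05 on HFD (adjusted p = 0.841) and -0.13 on chow (adjusted p = 0.543).

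In the peroxisomal list (19 genes) none rose and 2 fell on HFD, and 2 rose and 5 fell on chow, beside the same shares of all genes (10.3% and 7.57% on HFD, 12.9% and 11.8% on chow). Ech1, a dienoyl-CoA isomerase, fell by 0.56 on HFD (adjusted p = 0.00952) and by 0.40 on chow (adjusted p = 0.0466), and the very long chain transporter Abcd2 by 0.46 on HFD (adjusted p = 0.0274) and 0.42 on chow (adjusted p = 0.0331). On chow Hacl1, a lyase of alpha-oxidation, fell by 1.09 (adjusted p = 0.00237), the acyl-CoA transporter Abcd3 by 0.47 (adjusted p = 0.00192) and Pecr, an enoyl-CoA reductase, by 0.54 (adjusted p = 0.00856). Scp2, a thiolase and lipid carrier, rose by 0.37 (adjusted p = 0.0199) and Decr2 by 0.47 (adjusted p = 0.0108).

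Among the genes of ketone body metabolism (9 of 10 tested), Acat1 fell in LKO on both diets. Of the other 8 only Slc16a7 was called, on HFD. Of all genes edgeR called 17.9% on HFD and 24.7% on chow. Acat1, the mitochondrial thiolase that makes and splits acetoacetyl-CoA, had 104, 124, 151 and 119 CPM in LKO on HFD, against 647, 421, 438.5 and 477 CPM in WT on HFD. On chow it had 95.1, 147, 101 and 162 CPM in LKO, against 539, 357, 369 and 403 CPM in WT. Every LKO library was below every WT library on the same diet. The log2 fold changes were -1.995 on HFD (SE 0.196, adjusted p = 2.07e-06) and -1.73 on chow (SE 0.194, adjusted p = 6.72e-06), and the call was kept in all 26 alternatives on each diet. No 150-base window of its transcript occurred in another gene.

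Bdh1, which interconverts acetoacetate and beta-hydroxybutyrate, stood at log2 fold changes of -0.12 on HFD (adjusted p = 0.551) and 0.05 on chow (adjusted p = 0.812). Slc16a7, a monocarboxylate transporter, rose by 0.26 on HFD (adjusted p = 0.042).

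**Figure D4:**
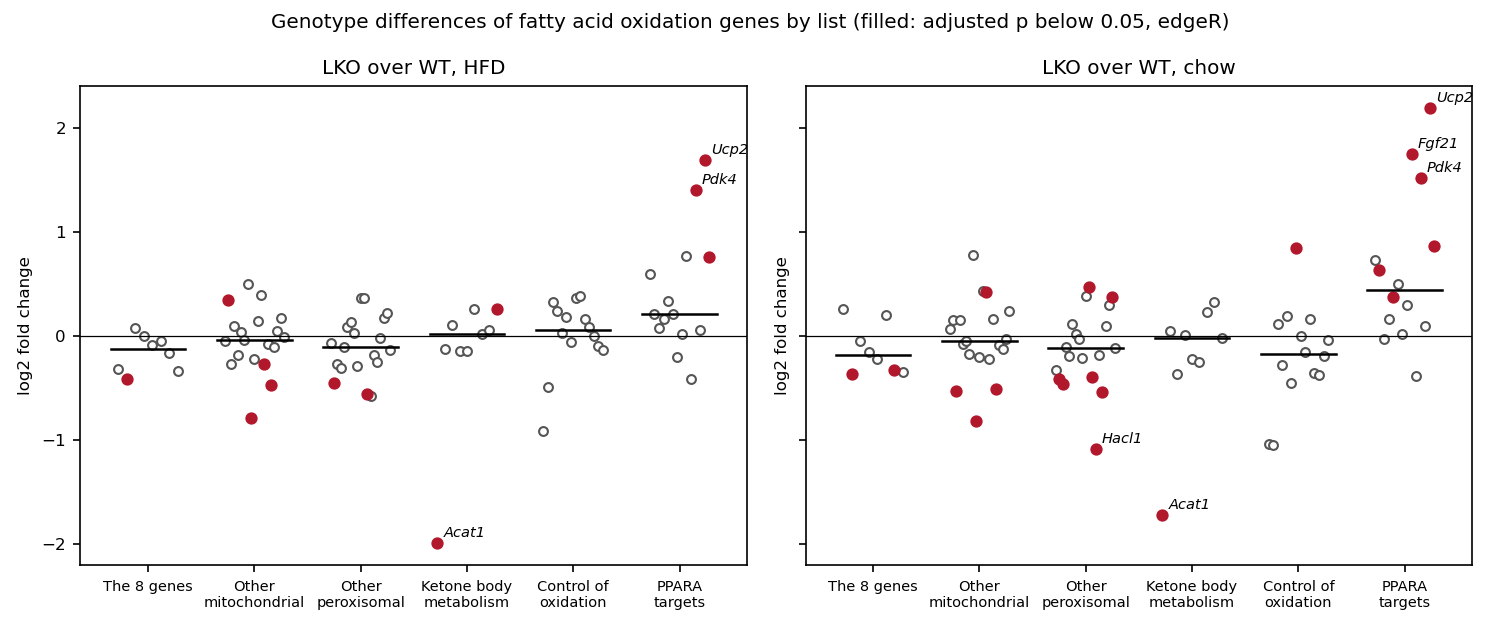
Log2 fold change of LKO over WT on HFD (left) and on chow (right) for the 8 genes and 5 lists of related genes, 1 point per gene, with a bar at each median. Filled points passed an adjusted p below 0.05 and those beyond 1 in either direction are named, with Acat1 lowest and Ucp2 highest among them.

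Of the PPARA targets outside these pathways (14 of 15 tested) 3 rose on HFD and 6 on chow, and none fell. The other 11 on HFD and 8 on chow were not called. The genotypes did not overlap for 4 of the 14 on HFD (27.8% of all genes) and for 2 on chow (21.4% of all genes). Of all genes 10.3% rose and 7.57% fell on HFD, and 12.9% rose and 11.8% fell on chow. The median log2 fold change was 0.21 on HFD (-0.01 over all genes) and 0.44 on chow (0.02 over all genes). Ucp2, a mitochondrial carrier, averaged 149 ± 10.7 CPM in LKO and 46.0 ± 3.25 CPM in WT on HFD, and 155 ± 21.6 CPM in LKO and 33.8 ± 7.47 CPM in WT on chow (SD, n = 4 each). It rose by 1.69 on HFD (SE 0.134, adjusted p = 1.23e-07) and by 2.19 on chow (SE 0.136, adjusted p = 7.83e-09). Pdk4, the kinase that shuts off pyruvate dehydrogenase when fat is burned, rose by 1.41 on HFD (adjusted p = 0.0194) and by 1.51 on chow (adjusted p = 0.00888). Vnn1, a pantetheinase, rose by 0.76 on HFD (adjusted p = 0.0367) and by 0.87 on chow (adjusted p = 0.0144). On chow the hormone Fgf21 (1.75, adjusted p = 0.0135), the thioesterase Acot2 (0.63, adjusted p = 0.0184) and the fatty acid translocase Cd36 (0.38, adjusted p = 0.0491) also rose. The chow libraries of Vnn1, Fgf21, Acot2 and Cd36 overlapped between genotypes.

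Among 14 genes that control oxidation, edgeR called none between genotypes on HFD and 1 on chow, the nuclear receptor Ppard (0.84, adjusted p = 0.0451). Of all genes it called 17.9% on HFD and 24.7% on chow. On HFD 3 of the 14 had an unadjusted p below 0.05 (edgeR), DESeq2 called 0 and limma voom 3. The shares of all genes for these 3 counts are not given here. Ppara had 158, 176, 118 and 149 CPM in LKO on HFD, against 198, 78.9, 115 and 137 CPM in WT on HFD. On chow Ppara had 87.0, 123, 44.9 and 55.1 CPM in LKO, against 95.6, 131, 109 and 87.8 CPM in WT, with adjusted p = 0.74 on HFD and 0.31 on chow. Its groups overlapped in every comparison.

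Between diets 3 of the 75 pathway genes rose and 2 fell in LKO, and 1 rose and 1 fell in WT. Of all genes 2.22% were called in LKO and 2.04% in WT. Abcd2 fell on HFD in LKO by 0.72 (adjusted p = 0.0105) and in WT by 0.68 (adjusted p = 0.0139). In LKO Ppard fell by 1.35 (adjusted p = 0.0279), while Acad10 (0.41, adjusted p = 0.0342) and the fatty aldehyde dehydrogenase Aldh3a2 (0.53, adjusted p = 0.0361) were among those that rose. In WT Cd36 rose by 0.54 (adjusted p = 0.0453). The LKO count of 5 was 11 without LKO chow replicate 2, 2 without LKO chow replicate 3 or 4, 0 without LKO HFD replicate 1, 1 without LKO HFD replicate 2 or 4 and 3 without LKO HFD replicate 3. The WT count of 2 was 1 without WT chow replicate 1, 3 or 4, without any WT HFD replicate or without any LKO HFD replicate. Which calls changed in these cases, and the shares of all genes called, are not given here. No pathway gene was called in the interaction (edgeR; 3 had an unadjusted p below 0.05, and DESeq2 and limma voom called 0).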

How the data were processed

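Poly(A)-enriched liver RNA was read in pairs of 150 bases, per the labels' protocols. The authors deposited estimated counts per gene (51.1% of values whole). The submitters' processing notes name mm10, Bowtie2 and DESeq2; the counting tool and annotation are not given in the sources used here. In a second deposited table of 35712 genes the chow columns stand 1 row off: 1 gene of 15119 equalled the counts table as deposited and 15118 did after a shift of 1 row (tolerance 1e-06). The counts table was used, without 2 further columns that are blank but for 1 comment.

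Estimated counts were rounded, filtered with filterByExpr (14434 genes left) and TMM-scaled. One edgeR 4.0.16 quasi-likelihood fit over all 4 groups (R 4.3.3) gave every comparison, with Benjamini-Hochberg adjustment over all genes and a threshold of 0.05. SE is the log2 fold change divided by the root of the F statistic. The fit was tested on simulated data. Alternatives used DESeq2 1.42.0, limma 3.58.1 (voom), other scalings and filters, the compared groups alone, a replicate block and each library left out. Leaving out pairs of LKO chow libraries was chosen after seeing the data. The 8 genes and the lists were chosen with earlier results of these data known. Named genes are the 8, Arglu1, Acaa1a, Bdh1, Ppara, up to 4 called genes of lowest p per list and comparison, and the 5 most correlated genes. Hadhb, Scp2, Acot2 and the marker genes were named after their values were seen. Some genes that this rule names are not reported here. Lengths and coordinates are from GENCODE M21 (GRCm38).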

Additional observations from a re-analysis of the deposited data

Results flagged for a closer look

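Acadm in LKO HFD replicate 1 stood at 364.9 CPM, against 380.0 to 380.8 CPM in the other 3 LKO HFD libraries. Its gap to the nearest library was 0.948 of the group's range, above Dixon's 95% critical value for 4 libraries. In all, 32 groups were tested in this way, and chance passes that value in about 1 of 20.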

How the results depend on the processing

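Among the 8 genes, Arglu1, Acat1 and Decr1, no called result changed its direction under any alternative. For other called genes the direction under the alternatives is not given here. Values near 0 that were not called did in several comparisons, among them these: Acadm on chow was 0.12 without WT chow replicate 1, and over all alternatives Cpt1a on chow ran from -0.44 to 0.03 and Ehhadh on HFD between genotypes from -0.11 to 0.02. Of the 8 genes, the count called on HFD between genotypes (1) was 4 with limma voom and 3 with the HFD groups alone, and 1 with every library left out in turn. On chow (2) it was 0 with the chow groups alone, 1 without LKO chow libraries 3 and 4, and 1 to 4 with a library left out. In WT the diet count (2) was 1 to 2 with a library left out. In LKO (0) it was 1 with DESeq2, 2 with limma voom, 2 without LKO chow libraries 1 and 2, and 0 to 1 with a library left out. The interaction count (0) was 1 without LKO chow libraries 1 and 2 and stayed at 0 with any single library left out. A 1.5-fold minimum left 0 on HFD and 0 on chow. With the replicate block, Hadha on chow was lost (adjusted p = 0.0527), leaving 1 called there. The shares of all genes called under these alternatives are not given here. Same-numbered libraries deviated together in 5 of 24 pairs (r over 0.1, median -0.018, range -0.278 to 0.318). Whether they share a batch was not tested. Outside the replicate block the numbers were used only to name libraries.

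Of the pathway genes, the HFD count between genotypes (11) was 24 with limma voom, 21 with the groups alone, 17 without LKO chow libraries 1 and 2, 5 with the fold minimum and 5 to 13 with a library left out. On chow (19) it was 8 with the groups alone, 11 without LKO chow libraries 3 and 4, 9 with the fold minimum and 13 to 21 with a library left out. The diet count in LKO (5) was 11 with DESeq2, 13 with limma voom, 2 with the groups alone, 16 without LKO chow libraries 1 and 2, 2 without libraries 3 and 4, 2 with the fold minimum and 0 to 11 with a library left out. In WT (2) it was 6, 4, 2, 5, 3, 1 and 1 to 3 in the same order of settings. The interaction count (0) was 6 without LKO chow libraries 1 and 2. The shares of all genes called under these settings are not given here. The cause of these changes in count was not tested. Upper-quartile scaling split the chow genotype calls of all genes into 2123 higher and 1401 lower, DESeq2 size factors into 1758 and 1860, and TMM into 1867 and 1698.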
